A study of Rattus norvegicus with 10 samples.

Results

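The genes of Wnt signaling were examined in RNA-seq counts of rat hippocampal slices, CA1 region. Members were taken by gene symbol, as the Wnt ligands, Porcn and Wls, the Frizzled receptors with Lrp5, Lrp6, Ror1 and Ror2, the secreted inhibitors of the Dkk and Sfrp families with Wif1, the Dishevelled proteins, β-catenin (Ctnnb1) with Apc, Axin2, Gsk3a and Gsk3b, and the TCF/LEF factors. These were 54 of the 32545 rows of the count table, with 53 symbols, since Dkk1 had 2 rows. Of these, 42 passed the filter on low counts and were tested, among 15032 tested genes in all.

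The slices came from adult male Wistar rats of 5 to 7 weeks and formed 5 groups of 2 libraries each, collected 1 h after treatment, before which basal stimulation had run for 30 min. The SKF group received an agonist of the dopamine D1/D5 receptors. SKF+Aβ received SKF and oligomers of the amyloid peptide Aβ(1–42) at 200 nM. In SKF+Aβ+CSP the glucose-derived carbon nanosphere CSP, the vehicle, was added at 0.36 μg/ml, and in SKF+Aβ+CSP‐TTK21 the particle carried TTK21, which activates the histone acetyltransferases p300 and CBP. CSP‐TTK21 alone received the loaded particle without SKF and without Aβ, so it differed from SKF both by the particle and by the missing agonist, and their parts cannot be told apart. The untreated group was not analysed here. By the study's methods each repeat used 2 slices of 2 biological samples. The study calls the libraries of a group biological replicates, while the labels do not say whether the same animals served more than 1 library. If they did, part of the spread that the p-values measure is technical.

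Wnt proteins are lipid-modified in the endoplasmic reticulum by Porcupine (Porcn) and carried to the cell surface by Wntless (Wls). Bound to a Frizzled receptor and Lrp5 or Lrp6, they act through Dishevelled to stop the complex of Axin, Apc and Gsk3 from marking β-catenin for destruction, and β-catenin then drives transcription with TCF/LEF factors. In the adult hippocampus the pathway is known for roles in synapse maintenance and plasticity, and Dkk1, a secreted blocker of Lrp6, is known from work on Aβ.

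The promoters of Axin2 and Nkd1 are given as examples of a sequence search at the transcriptional end of the pathway. Both genes encode feedback inhibitors that β-catenin raises in many tissues, Axin2 is a member, and Nkd1 was called in the data below. The stretches are the 250 bases before the annotated start, from RefSeq on GRCr8, and capitals mark the letters CTTTGAA or CTTTGAT, and likewise CTTTGTA or CTTTGTT, which TCF/LEF factors are known to recognize, searched on both strands. Axin2 lies at chr10:94398535-94398784 on the plus strand, with matches that begin 232 and 132 bases before the start. Nkd1 lies at chr19:34722847-34723096 on the minus strand, with a match that begins 141 bases before the start.
Axin2: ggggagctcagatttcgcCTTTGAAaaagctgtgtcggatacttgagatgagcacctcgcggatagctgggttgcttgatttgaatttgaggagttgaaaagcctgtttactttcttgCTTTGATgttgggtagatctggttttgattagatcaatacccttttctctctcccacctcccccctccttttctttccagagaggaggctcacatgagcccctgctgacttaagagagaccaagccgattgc
Nkd1: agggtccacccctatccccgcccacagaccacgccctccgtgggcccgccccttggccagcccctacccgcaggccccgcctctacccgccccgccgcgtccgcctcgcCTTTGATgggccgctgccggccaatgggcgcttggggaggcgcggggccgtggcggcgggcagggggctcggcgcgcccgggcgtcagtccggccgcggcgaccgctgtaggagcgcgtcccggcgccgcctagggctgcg
Over the 300 bases from 250 before to 50 after the start, 5719 of all 33469 promoters held such letters, or 17.1%. Among the members 41 had a promoter entry and 8 of these held them (19.5%), close to the share of all promoters. In a list of 16 genes known to be raised by β-catenin, 4 of them members, 11 had an entry and 7 held them (63.6%). Matched letters describe the sequence and do not show binding.

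Total counts ran from 6753742 to 8473407 per library, and the members took between 0.270% and 0.311% of them. Levels are given as normalized CPM, CPM being the count relative to the library total and scaled by TMM factors from edgeR, as mean ± SD with n = 2 libraries per group. Transcript length was not used, so a level can be compared between libraries for a gene, and not between genes. The level of 3 counts was 0.354 to 0.444 CPM, a limit that covers counting error only. Of the 7 listed markers of CA1 pyramidal cells, 6 matched a row, and their summed level was between 481 and 920 normalized CPM. Markers of neighboring fields were also counted, at 203 to 311 for dentate granule cells and 297 to 404 for CA3, as were those of oligodendrocytes, at 10629.5 to 24306. Fibcd1, Cldn5 and Col1a2, markers of CA1, endothelium and fibroblasts, were listed at 0 in every library although other markers of these cells were counted. In slices, fewer cells of a type and less RNA per cell cannot be told apart.

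Depth varied widely between members. Of the 42 tested, 19 had a mean of at least 100 counts per library and 8 had fewer than 20. Apc, the scaffold of the destruction complex, was counted most, with a mean of 11463. The 12 rows that were not tested were Wnt3a, Wnt6, Wnt8a, Wnt8b, Wnt9a, Wnt9b, Wnt11, Wnt16, Fzd8, Dkk2 and both rows of Dkk1, with mean levels between 0 and 0.906 normalized CPM. Fzd8 and both rows of Dkk1 were listed at 0 in every library, which says only that they were not counted. Fibcd1, Cldn5 and Col1a2 were also at 0, although other markers of their cell types were counted. The cause of these zeros was not tested.

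**Figure D1:**
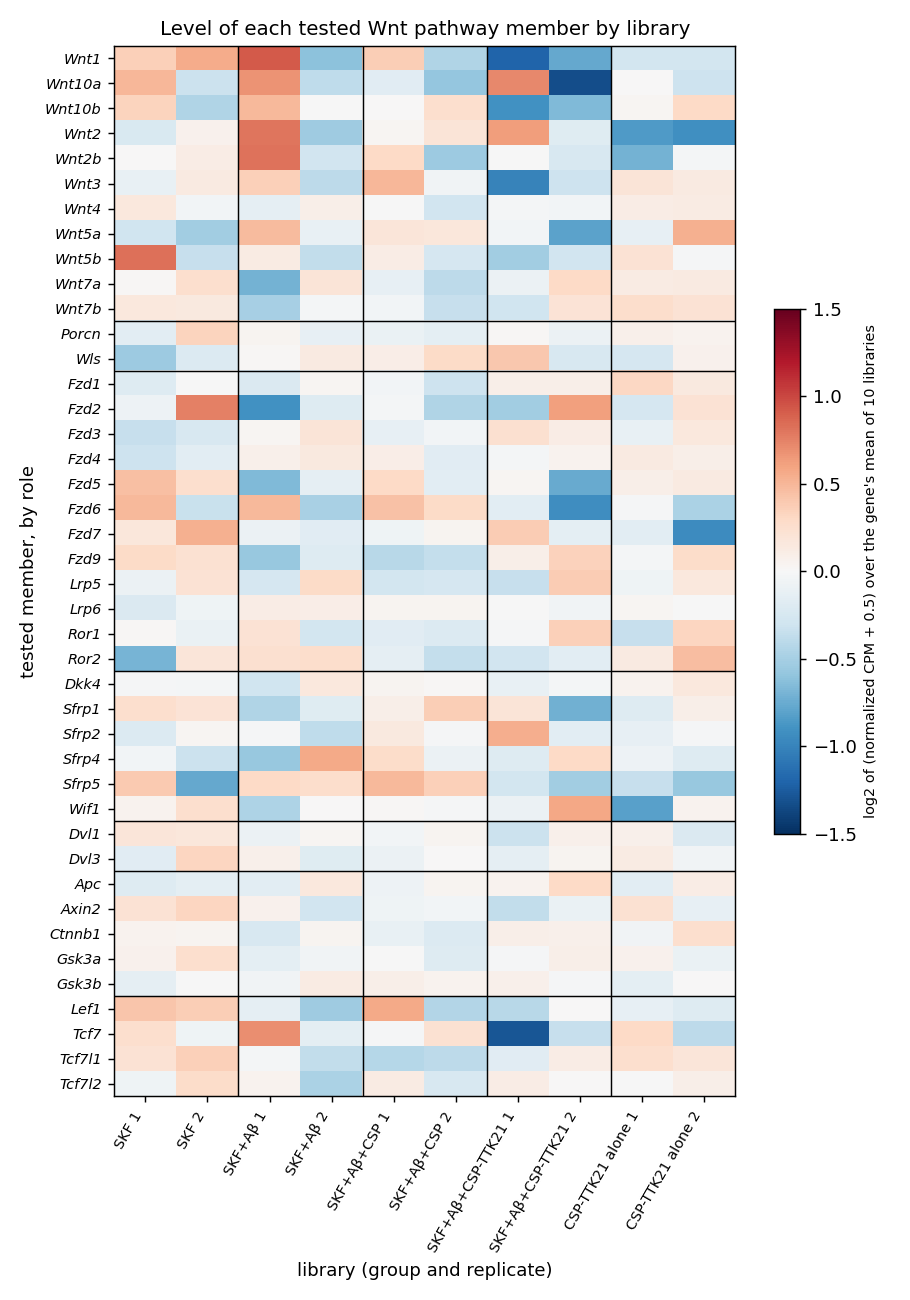
The color shows, for each tested member (rows, in the order ligands, ligand secretion, receptors, secreted inhibitors, Dishevelled, β-catenin and its complex, TCF/LEF factors) and each of the 10 libraries (columns), the log2 of normalized CPM plus 0.5 over the mean of that gene. Lrp6, Gsk3b and Dkk4 are nearly even over all libraries, while Wnt1, Wnt10a and Fzd2 range widely, also between the 2 libraries of a group.

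Across all 10 libraries the coefficient of variation of the tested members went from 6.12% for Gsk3b to 60.4% for Wnt10a. Much of this follows depth, since a mean of 8.3 counts for Wnt10a gives 34.7% from counting alone. Ror1, a receptor of noncanonical Wnt signals, varied by 21.2% with 23.6% given by counting, and Dkk4, a secreted inhibitor, by 9.02% with 8.91%. For these genes no spread beyond counting was detectable. As a ratio to counting, the spread was widest for Apc, 11.8% with 0.934% from counting, a ratio of 12.6. Among the ligands the ratio of spread to counting was highest for Wnt2, at 4.15.

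With each of the 7 comparisons adjusted over all tested genes, 0 members were called at an adjusted p under 0.05 (quasi-likelihood test of edgeR, Benjamini-Hochberg adjustment, n = 2 per group), and DESeq2 and limma also called 0. For SKF+Aβ against SKF the background was 312 genes, 2.08% of those tested. It was 3 genes (0.0200%) for SKF+Aβ+CSP against SKF and 1 gene (0.00665%) for SKF+Aβ+CSP‐TTK21 against SKF. In the other 4 comparisons 0 genes were called, 0% of those tested.

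The count of members with an unadjusted p under 0.05 is read beside the share of all tested genes that passed. Between SKF+Aβ and SKF it was 3 of 42 members (7.14%), where 22.8% of all tested genes passed. SKF+Aβ+CSP against SKF likewise gave 3, where the background was 19.4%. For SKF+Aβ+CSP‐TTK21 against SKF there were 6 (14.3%) beside 19.6%, and for CSP‐TTK21 alone against SKF 3 beside 7.78%. Adding CSP to SKF+Aβ gave 0 members beside 2.18%. SKF+Aβ+CSP‐TTK21 gave 4 (9.52%) against SKF+Aβ, beside 6.59%, and 6 (14.3%) against SKF+Aβ+CSP, beside 8.77%. Single libraries moved all of these counts but the one between SKF+Aβ+CSP‐TTK21 and SKF by more than 1.5 times. SKF+Aβ against SKF rose from 3 to 6 without SKF+Aβ replicate 1 and to 7 without SKF+Aβ replicate 2. SKF+Aβ+CSP against SKF rose to 6 without SKF replicate 1, while CSP‐TTK21 alone against SKF went to 1 without SKF replicate 2 or without CSP‐TTK21 alone replicate 2. SKF+Aβ+CSP against SKF+Aβ, 0 with all libraries, gave 1 without SKF+Aβ replicate 1 or SKF+Aβ+CSP replicate 2, and 2 without SKF+Aβ replicate 2. SKF+Aβ+CSP‐TTK21 against SKF+Aβ went from 1 without SKF+Aβ replicate 1 to 7 without SKF+Aβ replicate 2. The last comparison gave 0 without SKF+Aβ+CSP replicate 1 and 3 without SKF+Aβ+CSP‐TTK21 replicate 2. The share over all genes was not counted again for these fits.

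The median log2 fold change of the tested members was between -0.15 and 0.02 over the 7 comparisons, and that of all tested genes between -0.011 and 0.011. Standard errors of the members had a median of 0.32 in most comparisons and reached 0.87, which sets the size of difference that could be seen. The comparisons share libraries, and values of a gene in several of them are not independent.

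**Figure D2:**
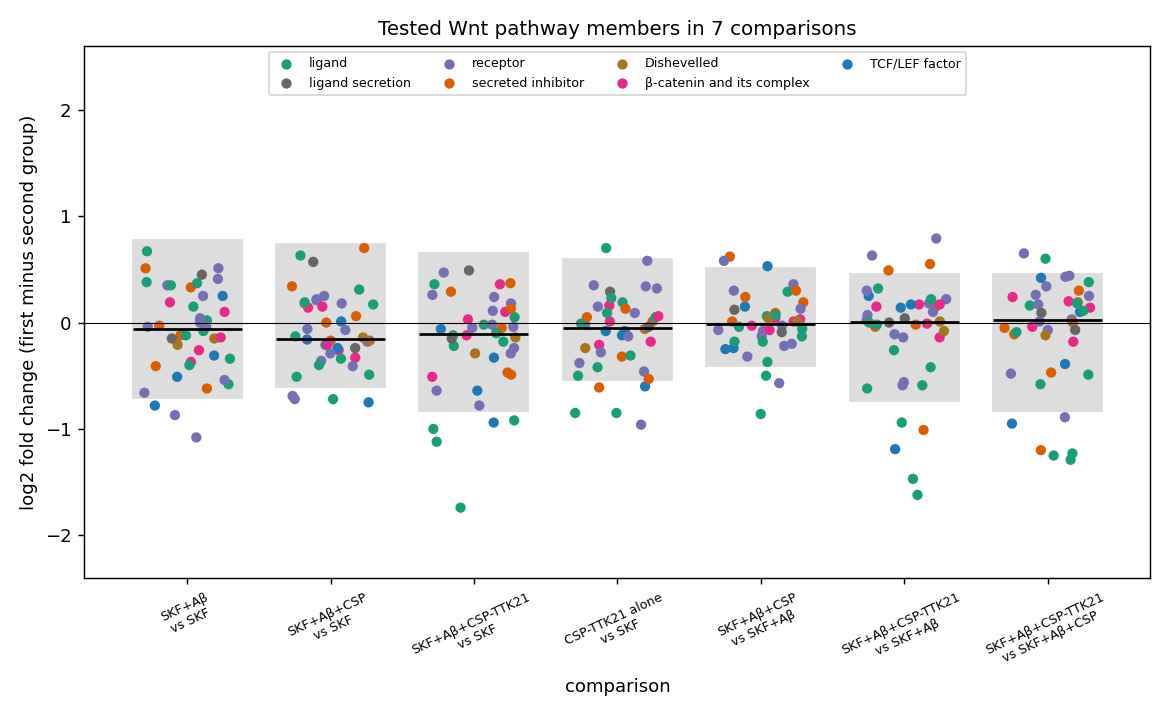
Each point is the log2 fold change of a tested member in a comparison, colored by role, black lines mark the median of the members and gray boxes the range from the 5th to the 95th percentile of all tested genes. The members spread about 0, and the lowest point, -1.74, is Wnt1 in SKF+Aβ+CSP‐TTK21 against SKF.

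Among the ligands, Wnt4, known from kidney and gonad development, had the most counts. Its libraries were at 78.6 and 67.9 normalized CPM for SKF, 64.1 and 74.8 for SKF+Aβ, 69.6 and 57.3 for SKF+Aβ+CSP, 68.9 and 68.0 for SKF+Aβ+CSP‐TTK21, with 75.7 and 76.6 for CSP‐TTK21 alone. The groups overlapped in all 7 comparisons, and its log2 fold changes lay between -0.21 and 0.11, each with a standard error of 0.15. Wnt7b, a ligand known to promote dendrite growth, was at 54.2 ± 0.473 for SKF, 41.0 ± 9.31 for SKF+Aβ, 42.8 ± 6.52 for SKF+Aβ+CSP, 47.9 ± 12 for SKF+Aβ+CSP‐TTK21 and 57.5 ± 1.01 for CSP‐TTK21 alone. Wnt7a, known for the clustering of presynaptic proteins, ranged from 10 to 20.6 over the libraries and Wnt5a, which acts mainly through noncanonical receptors, from 3.84 to 10.5.

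Wnt3, Wnt10b and Wnt1 each had their lowest group mean in SKF+Aβ+CSP‐TTK21, and all 3 rest on few counts. Wnt3, a canonical ligand, was at 1.38 and 1.73 normalized CPM for SKF, 2.09 and 1.04 for SKF+Aβ, 2.36 and 1.46 for SKF+Aβ+CSP, 0.510 and 1.14 for SKF+Aβ+CSP‐TTK21, with 1.82 and 1.73 for CSP‐TTK21 alone. Both SKF+Aβ+CSP‐TTK21 libraries lay below both SKF libraries and both SKF+Aβ+CSP libraries, and 1 of them overlapped with SKF+Aβ. Wnt3 in SKF+Aβ+CSP‐TTK21 differed from SKF by -0.92 on the log2 scale (standard error 0.58, adjusted p = 0.396 by edgeR). The difference was -0.94 from SKF+Aβ (0.59, adjusted p = 0.773) and -1.23 from SKF+Aβ+CSP (0.56, adjusted p = 0.566, both edgeR). Wnt10b, a canonical ligand known from the regulation of progenitor cells, was at 2.21 and 1.07 for SKF, 2.51 and 1.64 for SKF+Aβ, 1.65 and 2.05 for SKF+Aβ+CSP, 0.638 and 0.854 for SKF+Aβ+CSP‐TTK21, with 1.68 and 2.13 for CSP‐TTK21 alone. The SKF+Aβ+CSP‐TTK21 libraries held the lowest values of all 10. Its change was -1.12 against SKF (standard error 0.56, adjusted p = 0.292 by edgeR), where CSP‐TTK21 alone differed from SKF by 0.23 (standard error 0.49). Against SKF+Aβ the Wnt10b change in SKF+Aβ+CSP‐TTK21 was -1.47 (0.55, adjusted p = 0.746), and against SKF+Aβ+CSP -1.29 (0.55, adjusted p = 0.564, both edgeR).

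Wnt1, a canonical ligand known from midbrain development, was at 4.0 and 4.66 normalized CPM for SKF, 6.13 and 1.78 for SKF+Aβ, 4.01 and 2.05 for SKF+Aβ+CSP, 1.02 and 1.56 for SKF+Aβ+CSP‐TTK21, with 2.39 and 2.40 for CSP‐TTK21 alone. The SKF+Aβ+CSP‐TTK21 libraries again held the lowest values, and the SKF+Aβ libraries lay far apart. Wnt1 differed by -1.74 on the log2 scale from SKF (standard error 0.56, adjusted p = 0.144), by -1.62 from SKF+Aβ (0.57, adjusted p = 0.746) and by -1.25 from SKF+Aβ+CSP (0.58, adjusted p = 0.567; edgeR for all of these). With no filter on low counts, a fit of 25251 genes, the first of these had an adjusted p of 0.00600 by edgeR. The summed endothelial markers described for Fzd6 were also lowest in SKF+Aβ+CSP‐TTK21, at 67.9 and 67.4 where the other libraries were between 82.8 and 174, and their part in Wnt1, Wnt10b and Wnt3 was not tested. In the RefSeq annotation of GRCr8, Wnt1 and Wnt10b both overlap the span of Tuba1c, a tubulin gene. Whether the counting used the strand is not stated, so reads of overlapping genes could be split between them.

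Wnt3a, a canonical ligand used widely to activate the pathway, was below the filter. It was at 0.138 and 0.666 normalized CPM for SKF, 1.12 and 0.297 for SKF+Aβ, 0.236 and 0.439 for SKF+Aβ+CSP, 1.02 and 0 for SKF+Aβ+CSP‐TTK21, and 0 in both libraries of CSP‐TTK21 alone. A count of 0 in the latter allows up to 0.433 and 0.402 CPM. Most other libraries lay near or under that limit, while those at 0.666, 1.12 and 1.02 lay above it. Differences in Wnt3a were not tested.

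Wnt2, a canonical ligand, was at 11.7 and 14.5 normalized CPM for SKF, 24.4 and 9.37 for SKF+Aβ, 14.1 and 15.8 for SKF+Aβ+CSP, 21.6 and 12.1 for SKF+Aβ+CSP‐TTK21, with 7.44 and 7.07 for CSP‐TTK21 alone. Replicate 1 of SKF+Aβ and of SKF+Aβ+CSP‐TTK21 stood above all others, and CSP‐TTK21 alone below all others. The difference between CSP‐TTK21 alone and SKF was -0.85 (standard error 0.39, adjusted p = 0.633 by edgeR). Wfs1, a marker of CA1 pyramidal cells, was at 371 and 338 in the same pair of high Wnt2 libraries and between 97.9 and 230 in the other 8. The summed CA1 markers were highest in these libraries too, at 854 and 920, with 481 to 777 in the rest. Wfs1 was picked for this comparison after its values were seen, and the part of the dissected field in the level of Wnt2 was not tested.

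**Figure D3:**
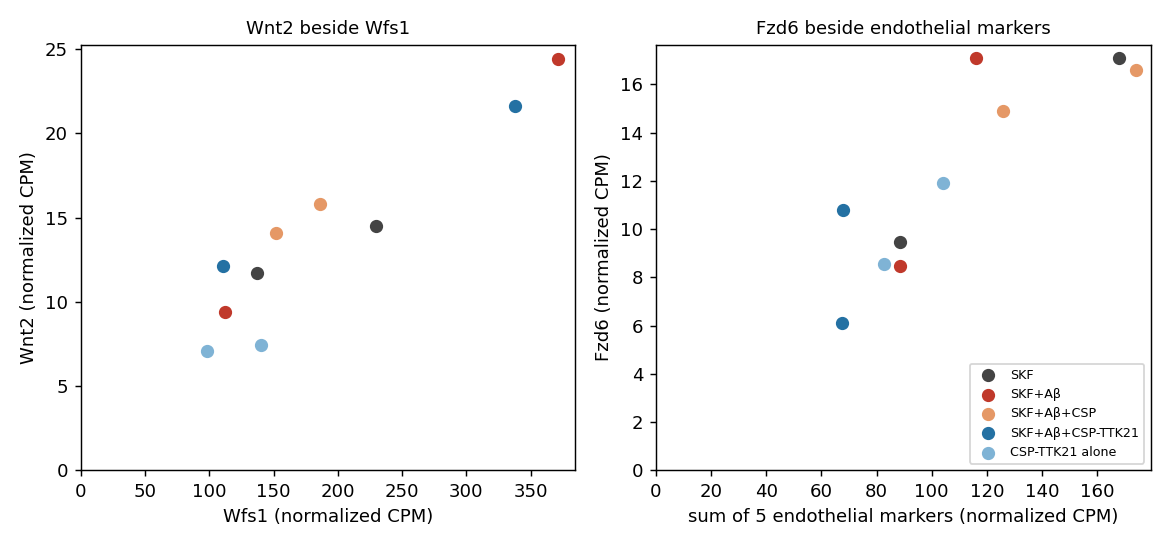
Left, Wnt2 against Wfs1, and right, Fzd6 against the sum of 5 endothelial markers, both in normalized CPM, with a point for each of the 10 libraries colored by group. The libraries with the highest Wfs1, 371 and 338, have the highest Wnt2, and Fzd6 is between 14.9 and 17.1 in the 4 libraries with an endothelial sum of at least 116.

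Porcn and Wls, which Wnt proteins need for secretion, were both well counted. Wls was at 32.4 and 41.2 normalized CPM for SKF, 48.1 and 52.3 for SKF+Aβ, 51.0 and 58.1 for SKF+Aβ+CSP, 63.0 and 40.4 for SKF+Aβ+CSP‐TTK21, with 40.1 and 50 for CSP‐TTK21 alone. The libraries of SKF+Aβ and SKF+Aβ+CSP lay above those of SKF, while the 2 SKF+Aβ+CSP‐TTK21 libraries lay on either side of the higher SKF value. The log2 fold changes of Wls against SKF were 0.45 for SKF+Aβ (standard error 0.21, adjusted p = 0.217) and 0.57 for SKF+Aβ+CSP (0.21, adjusted p = 0.171, both edgeR). For SKF+Aβ+CSP‐TTK21 the change was of similar size, 0.49 (0.21, adjusted p = 0.215), though its libraries lay far apart. For CSP‐TTK21 alone it was 0.29 (0.21, adjusted p = 0.717, both edgeR). Porcn was at 37.2 ± 8.95 in SKF and between 31.6 ± 0.645 and 36.1 ± 0.338 in the other groups, within the spread of SKF.

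**Figure D4:**
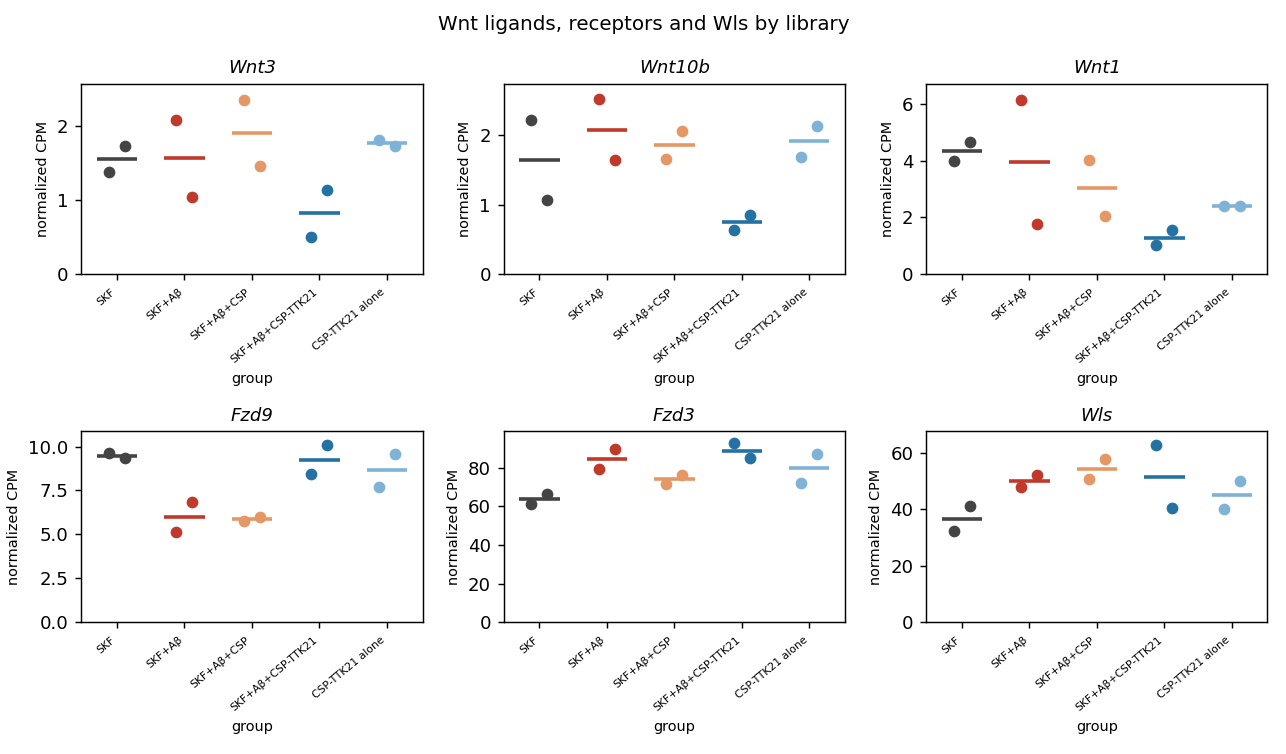
Normalized CPM of Wnt3, Wnt10b, Wnt1, Fzd9, Fzd3 and Wls, with a point for each library and a line for the group mean. The SKF+Aβ+CSP‐TTK21 libraries are the lowest for Wnt1 and Wnt10b, and Fzd9 is lower in SKF+Aβ and SKF+Aβ+CSP than in the other 3 groups.

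Among the receptors, Fzd3 and Fzd9 were the ones named in most comparisons. Fzd3, known for axon guidance and planar polarity, was at 61.5 and 66.3 normalized CPM for SKF, 79.7 and 89.8 for SKF+Aβ, 71.9 and 76.2 for SKF+Aβ+CSP, 92.7 and 84.9 for SKF+Aβ+CSP‐TTK21, with 72.3 and 87.4 for CSP‐TTK21 alone. All 8 libraries of the other groups lay above both SKF libraries, CSP‐TTK21 alone included. Against SKF the log2 fold change of Fzd3 was 0.41 in SKF+Aβ (standard error 0.14, adjusted p = 0.116) and 0.47 in SKF+Aβ+CSP‐TTK21 (0.14, adjusted p = 0.129). It was 0.21 for SKF+Aβ+CSP (adjusted p = 0.439) and 0.32 for CSP‐TTK21 alone (adjusted p = 0.633, edgeR throughout). These 4 values share the SKF libraries.

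Fzd9, a receptor known from the hippocampus, was at 9.66 and 9.32 normalized CPM for SKF, 5.16 and 6.84 for SKF+Aβ, 5.78 and 6.0 for SKF+Aβ+CSP, 8.42 and 10.1 for SKF+Aβ+CSP‐TTK21, with 7.72 and 9.60 for CSP‐TTK21 alone. The 4 libraries with Aβ and without TTK21 were the lowest of the 10, and the SKF+Aβ+CSP‐TTK21 libraries lay about the level of SKF. Against SKF the change in Fzd9 was -0.66 in SKF+Aβ (standard error 0.25, adjusted p = 0.145), -0.69 in SKF+Aβ+CSP (0.25, adjusted p = 0.174) and -0.04 in SKF+Aβ+CSP‐TTK21 (0.24, adjusted p = 0.947, edgeR). SKF+Aβ+CSP‐TTK21 was higher by 0.63 than SKF+Aβ (standard error 0.26, adjusted p = 0.746) and by 0.65 than SKF+Aβ+CSP (0.25, adjusted p = 0.556, edgeR). None of these passed the adjusted threshold.

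Fzd6 is set here beside markers of another cell type, which was not done for the other receptors. Its libraries were at 17.1 and 9.46 normalized CPM for SKF, 17.1 and 8.48 for SKF+Aβ, 16.6 and 14.9 for SKF+Aβ+CSP, 10.8 and 6.12 for SKF+Aβ+CSP‐TTK21, with 11.9 and 8.54 for CSP‐TTK21 alone. The SKF+Aβ+CSP libraries did not overlap with those of SKF+Aβ+CSP‐TTK21, a difference of -0.89 (standard error 0.36, adjusted p = 0.556 by edgeR). With no filter on low counts its adjusted p was 0.0414. The sum of the 5 endothelial markers used, Flt1, Kdr, Cdh5, Slco1a4 and Cldn5 (the last at 0), is not even either. It was at 168 and 88.5 for SKF, 116 and 88.6 for SKF+Aβ, 174 and 126 for SKF+Aβ+CSP, 67.9 and 67.4 for SKF+Aβ+CSP‐TTK21, with 104 and 82.8 for CSP‐TTK21 alone. SKF+Aβ+CSP‐TTK21 had the lowest sums and the lowest group mean of Fzd6, though its replicate 1, at 10.8, lay above 3 libraries of other groups whose sums were higher, and the part of vessels in the level of Fzd6 was not tested. Fzd6 was chosen for this description after its values were seen.

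Fzd7, another Frizzled receptor, was at 5.79 and 7.59 normalized CPM for SKF, 4.74 and 4.46 for SKF+Aβ, 4.83 and 5.27 for SKF+Aβ+CSP, 6.76 and 4.55 for SKF+Aβ+CSP‐TTK21, with 4.49 and 2.40 for CSP‐TTK21 alone. CSP‐TTK21 alone lay below SKF by 0.96 on the log2 scale, or -0.96 as a log2 fold change (standard error 0.35, adjusted p = 0.633 by edgeR). Fzd4, the receptor of Norrin in vessels, was at 16.3 ± 1.23 in SKF and 20.8 ± 0.648 in SKF+Aβ. Fzd1 was between 12.1 and 19.0 in all libraries. Fzd2 and Fzd5, with means of 20.5 and 18.5 counts, had changes of -1.08 and -0.87 in SKF+Aβ against SKF with standard errors of 0.53 and 0.45.

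The coreceptor Lrp6 was among the most even members. It was at 76.1 and 84.6 normalized CPM for SKF, 95.9 and 95 for SKF+Aβ, 91.0 and 91.3 for SKF+Aβ+CSP, 88.0 and 85.4 for SKF+Aβ+CSP‐TTK21, with 90.3 and 88.4 for CSP‐TTK21 alone. Its highest values were those of SKF+Aβ, above SKF by 0.25 on the log2 scale (standard error 0.12, edgeR adjusted p = 0.245). Lrp5, the other coreceptor, was between 6.25 and 10.7 over the libraries, with SKF+Aβ+CSP at 6.66 ± 0.0893 and SKF at 8.52 ± 1.32. Ror1 and Ror2, receptors of Wnt5a, were at 2.45 ± 0.520 and 2.77 ± 0.761 over the 10 libraries.

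Among the secreted inhibitors, Dkk4 varied least between libraries. Dkk4, a blocker of Lrp5 and Lrp6, was at 17.0 and 16.8 normalized CPM for SKF, 13.9 and 19.2 for SKF+Aβ, 17.7 and 17.4 for SKF+Aβ+CSP, 15.8 and 16.8 for SKF+Aβ+CSP‐TTK21, with 17.8 and 19.2 for CSP‐TTK21 alone. The largest of its log2 fold changes in size was 0.13 (standard error 0.19). Sfrp1, Sfrp2, Sfrp4 and Sfrp5, which bind Wnt proteins, and Wif1, which also does, had mean levels over the libraries between 1.03 and 3.84.

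Dvl1 and Dvl3 relay the signal from the receptor. Dvl3 was at 71.3 and 100 normalized CPM for SKF, 84.3 and 70.5 for SKF+Aβ, 75.4 and 80.2 for SKF+Aβ+CSP, 73.0 and 82.5 for SKF+Aβ+CSP‐TTK21, with 87.3 and 77.0 for CSP‐TTK21 alone. All groups overlapped, and the 2 SKF libraries lay the farthest apart. Dvl1 was at 50.1 ± 0.373 in SKF and between 40.9 ± 7.91 and 44.4 ± 1.76 in the other groups.

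Ctnnb1, the gene of β-catenin, was at 308 and 306 normalized CPM for SKF, 252 and 305 for SKF+Aβ, 274 and 258 for SKF+Aβ+CSP, 315 and 313 for SKF+Aβ+CSP‐TTK21, with 286 and 354 for CSP‐TTK21 alone. Both libraries of SKF+Aβ+CSP‐TTK21 lay above those of SKF+Aβ and SKF+Aβ+CSP and close to SKF. The log2 fold changes of Ctnnb1 were -0.14 for SKF+Aβ against SKF, 0.17 for SKF+Aβ+CSP‐TTK21 against SKF+Aβ and 0.24 against SKF+Aβ+CSP, each with a standard error of 0.14 and adjusted p of 0.576, 0.811 and 0.602 (edgeR).

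Gsk3b, the kinase that marks β-catenin, was at 136 and 148 normalized CPM for SKF, 143 and 162 for SKF+Aβ, 158 and 154 for SKF+Aβ+CSP, 157 and 147 for SKF+Aβ+CSP‐TTK21, with 134 and 150 for CSP‐TTK21 alone. Its fold changes were between -0.04 and 0.14 on the log2 scale with a standard error of 0.13. Gsk3a, the related kinase, was at 152 ± 13.8 in SKF and 127 ± 5.81 in SKF+Aβ. Apc was at 1363 and 1407 for SKF, 1405 and 1746 for SKF+Aβ, 1478 and 1603 for SKF+Aβ+CSP, 1620.1 and 1928 for SKF+Aβ+CSP‐TTK21, with 1402 and 1685 for CSP‐TTK21 alone. Both SKF+Aβ+CSP‐TTK21 libraries exceeded both SKF libraries, by 0.36 on the log2 scale (standard error 0.15, adjusted p = 0.215 by edgeR).

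Axin2, the scaffold and feedback inhibitor whose promoter is given above, was at 31.0 and 33.4 normalized CPM for SKF, 28.0 and 21.7 for SKF+Aβ, 25.5 and 25.9 for SKF+Aβ+CSP, 20.5 and 24.8 for SKF+Aβ+CSP‐TTK21, with 31.3 and 24.5 for CSP‐TTK21 alone. The 6 libraries with Aβ were all below the 2 SKF libraries. Axin2 differed from SKF by -0.37 in SKF+Aβ (standard error 0.18, adjusted p = 0.243), by -0.33 in SKF+Aβ+CSP (0.18, adjusted p = 0.341) and by -0.51 in SKF+Aβ+CSP‐TTK21 (0.18, adjusted p = 0.165, edgeR for all). CSP‐TTK21 alone, without Aβ, overlapped with SKF at -0.21 (adjusted p = 0.778).

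The TCF/LEF factors bind the DNA to which β-catenin is recruited. Lef1 was at 6.76 and 6.53 normalized CPM for SKF, 4.46 and 3.27 for SKF+Aβ, 7.54 and 3.51 for SKF+Aβ+CSP, 3.57 and 4.98 for SKF+Aβ+CSP‐TTK21, with 4.49 and 4.27 for CSP‐TTK21 alone. Apart from SKF+Aβ+CSP replicate 1, all libraries of the other groups lay below SKF. Lef1 differed from SKF by -0.78 in SKF+Aβ (standard error 0.37, adjusted p = 0.233 by edgeR) and by -0.60 in CSP‐TTK21 alone (0.36, adjusted p = 0.687). Tcf7l1, mostly a repressor, was at 7.86 and 8.66 for SKF, 6.55 and 5.06 for SKF+Aβ, 4.83 and 4.97 for SKF+Aβ+CSP, 5.87 and 7.26 for SKF+Aβ+CSP‐TTK21, with 8.0 and 7.60 for CSP‐TTK21 alone. Lowest were the SKF+Aβ+CSP libraries, with a difference of -0.75 from SKF (standard error 0.26, edgeR adjusted p = 0.158).

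Tcf7 was at 7.59 and 5.99 normalized CPM for SKF, 10.5 and 5.65 for SKF+Aβ, 6.25 and 7.46 for SKF+Aβ+CSP, 2.30 and 4.84 for SKF+Aβ+CSP‐TTK21, with 7.86 and 4.67 for CSP‐TTK21 alone. Both libraries of SKF+Aβ+CSP‐TTK21 lay below those of the other groups that received SKF. Against SKF+Aβ the change was -1.19 (standard error 0.41, adjusted p = 0.746), against SKF+Aβ+CSP -0.95 (0.41, adjusted p = 0.564) and against SKF -0.94 (0.41, adjusted p = 0.231, edgeR). SKF+Aβ+CSP‐TTK21 also had the lowest endothelial sum, given above for Fzd6, and its part in Tcf7 was not tested. Tcf7l2, which is strongly expressed in the thalamus, was at 14.6 and 18.6 for SKF, 15.9 and 10.9 for SKF+Aβ, 16.7 and 12.9 for SKF+Aβ+CSP, 16.6 and 15.4 for SKF+Aβ+CSP‐TTK21, with 15.3 and 16.3 for CSP‐TTK21 alone, and the groups overlapped.

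Genes known to be raised by β-catenin were examined as a list of 16 symbols, 4 of them members. Of these, 15 symbols were used and 12 were tested. Between SKF+Aβ and SKF, 3 were called and all 3 were lower in SKF+Aβ, where 0.852% of all tested genes were called in that direction. They were Nkd1, a feedback inhibitor that binds Dishevelled, Ccnd1, the G1 cyclin D1, and Myc, a transcription factor of growth. Ccnd1 and Myc also respond to other pathways. The median log2 fold change of the 12 was -0.28, beside -0.001 for all tested genes. This list and the further list below were chosen with earlier results of these data known. Their shares and medians therefore describe the data and are no independent test.

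Nkd1 was at 36.0 and 46.6 normalized CPM for SKF, 22.9 and 18.0 for SKF+Aβ, 30.1 and 27.4 for SKF+Aβ+CSP, 32.4 and 21.6 for SKF+Aβ+CSP‐TTK21, with 29.3 and 25.3 for CSP‐TTK21 alone. All libraries of the other groups lay below both SKF libraries. Nkd1 fell by 1.01 on the log2 scale in SKF+Aβ (standard error 0.21, adjusted p = 0.0402 by edgeR). Ccnd1 was at 101 and 99.2 for SKF, 66.1 and 51.3 for SKF+Aβ, 85.5 and 65.2 for SKF+Aβ+CSP, 89.2 and 75.7 for SKF+Aβ+CSP‐TTK21, with 73.7 and 71.5 for CSP‐TTK21 alone. It fell by 0.77 in SKF+Aβ (standard error 0.17, adjusted p = 0.0422 by edgeR). Myc was at 67.9 and 78.7 for SKF, 48.1 and 40.9 for SKF+Aβ, 59.9 and 52.5 for SKF+Aβ+CSP, 58.2 and 62.0 for SKF+Aβ+CSP‐TTK21, with 60.2 and 54.7 for CSP‐TTK21 alone. It fell by 0.72 (standard error 0.15, adjusted p = 0.0401 by edgeR). For all 3 genes both SKF libraries were the highest of the 10, CSP‐TTK21 alone lay below SKF without Aβ, and the means of SKF+Aβ+CSP and SKF+Aβ+CSP‐TTK21 lay between those of SKF+Aβ and SKF.

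These calls rest on both libraries of each group. With any of the 4 libraries left out 0 of the 3 were called, with adjusted p between 0.0686 and 0.147 (edgeR), and in a fit of the 4 libraries alone 0 were called, with adjusted p between 0.0827 and 0.0958. The direction stayed the same in each. Against SKF+Aβ, SKF+Aβ+CSP‐TTK21 was higher by 0.49 for Ccnd1 and by 0.43 for Myc (standard errors 0.17 and 0.15, adjusted p = 0.746 for both, edgeR), and by 0.40 for Nkd1 (0.22, adjusted p = 0.755). SKF+Aβ+CSP, with the empty particle, was higher than SKF+Aβ by 0.36, 0.34 and 0.49 for Ccnd1, Myc and Nkd1 (adjusted p = 1.00). The summed markers of oligodendrocytes were at 15639 and 23288 for SKF and at 15177 and 10629.5 for SKF+Aβ, and those of microglia at 72.0 and 135 for SKF and 57.3 and 88.9 for SKF+Aβ. The part of either in the 3 genes was not tested.

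**Figure D5:**
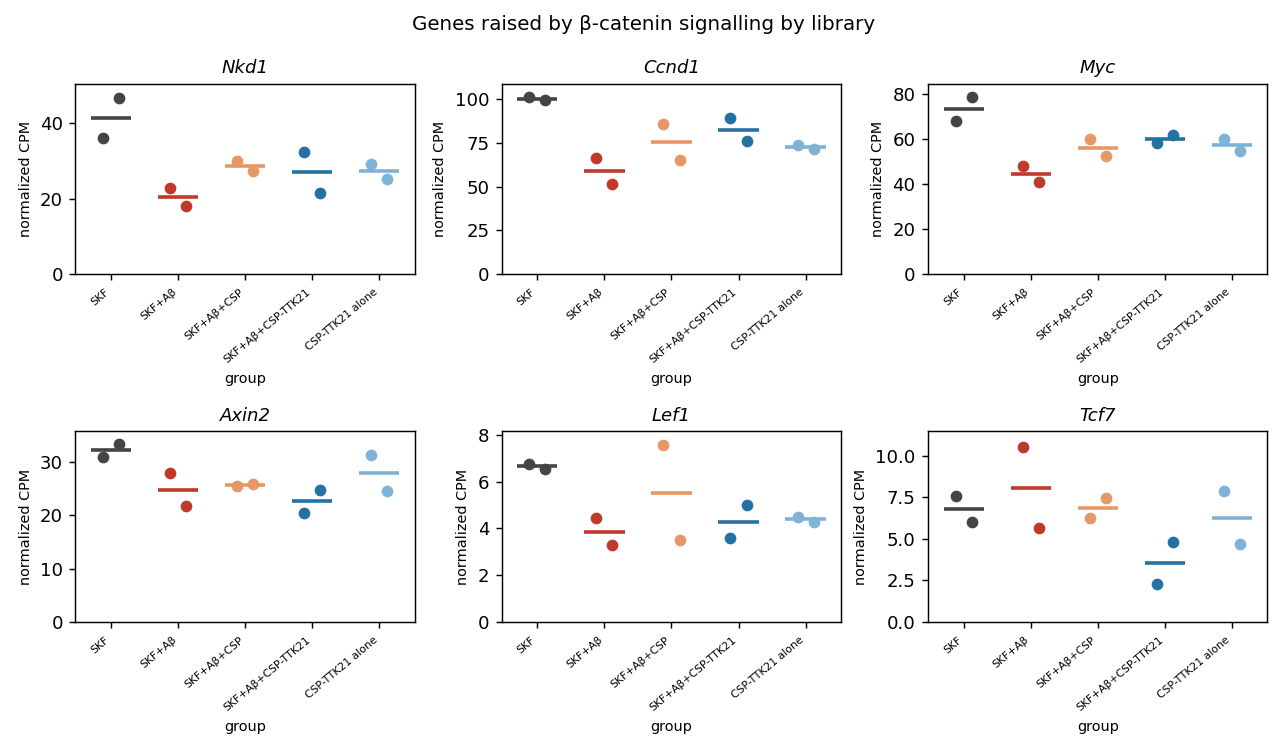
Normalized CPM of 6 genes known to be raised by β-catenin, with a point for each library and a line for the group mean. For Nkd1, Ccnd1 and Myc both SKF libraries lie above all others, and for Axin2 both lie above the 6 libraries with Aβ, while Tcf7 is lowest in SKF+Aβ+CSP‐TTK21.

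The other 9 tested genes of the list were not called between SKF+Aβ and SKF, and their log2 fold changes went from -0.78 for Lef1 to 0.56 for Lgr5. Rnf43, a ligase that removes Frizzled from the surface, was at 34.5 ± 3.46 in SKF and 23.8 ± 2.27 in SKF+Aβ, a change of -0.54 (standard error 0.23, adjusted p = 0.195 by edgeR). Cd44, an adhesion receptor, was at 94.8 ± 11.3 and 95.1 ± 17.9. Apcdd1, an inhibitor at the membrane, was at 58.3 ± 16.6 and 67.2 ± 33.1, and Tnfrsf19, a receptor of the TNF family, at 45.6 ± 11.8 and 42.4 ± 3.86. Lgr5, a receptor of R-spondins, was at 5.36 ± 0.803 in SKF and 7.85 ± 6.05 in SKF+Aβ, so its SKF+Aβ libraries lay far apart, and Bambi, a pseudoreceptor of TGF-β signals, at 2.72 ± 0.450 and 2.39 ± 0.618.

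A further list held 48 symbols of the pathway outside the members, among them R-spondins and their receptors, casein kinases, Groucho corepressors and planar polarity genes. Of these 46 were used and 41 tested, and Nkd1 was the 1 gene called, in SKF+Aβ against SKF. At an unadjusted p under 0.05 that comparison gave 14 of the 41, 10 lower and 4 higher (34.1%, beside 22.8% of all tested genes). Apc2, the neuronal relative of Apc, was at 308 ± 5.15 for SKF, 209 ± 12.1 for SKF+Aβ, 215 ± 0.475 for SKF+Aβ+CSP, 250 ± 43.7 for SKF+Aβ+CSP‐TTK21 and 240 ± 19.5 for CSP‐TTK21 alone. All groups lay below SKF, and the change in SKF+Aβ was -0.56 (standard error 0.14, adjusted p = 0.0535 by edgeR). Lgr4, a receptor of R-spondins, was at 35.8 ± 8.13 in SKF and between 50.8 ± 1.21 and 54.9 ± 3.47 in the other 4 groups. Its changes against SKF were 0.50 to 0.62 with a standard error of 0.16, and the lowest adjusted p was 0.0988 (edgeR). Apc2, Lgr4 and Rnf43 were named after their values were seen.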

How the data were processed

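The values are raw counts of reads for each rat Ensembl gene, which the authors deposited for all 10 libraries separately. Libraries were made with a stranded kit that removes ribosomal RNA. The study's methods name Trim Galore, Samtools, TopHat2, Cufflinks and Cuffdiff, with rat and mouse assemblies, while the submitters' processing notes list STAR, RSEM, HISAT2, Salmon and GRCh38. The counting program, the annotation and the strand setting are not given in the sources used here. In RefSeq's GRCr8, 20 of 53 matched members overlap another gene, 9 of them a protein-coding one, and their counts are uncertain where reads could be split.

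The labels gave the group and the replicate number of each library, and doses, times and ages from the study's methods. The fits were made with edgeR 4.0.16 under R 4.3.3. Rows were filtered with filterByExpr by group, scaled with TMM factors over full library totals and fitted together in a quasi-likelihood model with a mean per group. A gene was called at a Benjamini-Hochberg adjusted p under 0.05 over all tested genes, in 7 comparisons. The common biological coefficient of variation was 0.136. Replicates differed beyond sampling error (chi-square over its degrees of freedom, 4.98 to 12.7). Alternatives were the replicate number as a block, the 4 libraries compared, DESeq2 1.42.0, RLE factors, log2 CPM in limma 3.58.1, no filter, 10 counts in every library, a log2 fold change limit of 1.5 as in the study, and each library left out. The scripts were tested on simulated counts.

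Members and gene lists were chosen with earlier results of these data known. Values in every library are given for Wnt3, Wnt3a, Wnt10b, Ctnnb1, Axin2, Lef1, Gsk3b and Lrp6, for the tested member with the highest mean in each role, and for up to 3 highest and 3 lowest fold changes per comparison among members with an unadjusted p under 0.05 and groups that do not overlap. Promoters were read from RefSeq, and Ccnd1, Myc and Wnt10b had no entry.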

Additional observations from a re-analysis of the deposited data

How the results depend on the processing

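The count of 0 called members held in all 7 comparisons under every alternative run except no filter on low counts. That fit tested 25251 genes and called 1 member in SKF+Aβ+CSP‐TTK21 against SKF, Wnt1 (log2 fold change -1.76, standard error 0.45, adjusted p = 0.00600 from edgeR), and 1 against SKF+Aβ+CSP, Fzd6 (-0.88, standard error 0.25, adjusted p = 0.0414 from edgeR), and the cause was not tested. The 3 called target genes became 0 with the log2 fold change limit of 1.5 and 0 in the fit of the 4 libraries compared. They were 3 with DESeq2, limma, RLE factors, no filter and 10 counts in every library. For this comparison only the 4 libraries of SKF+Aβ and SKF were left out in turn, as described above. These alternatives for the target genes, and the leave-out counts at an unadjusted p, were added after the data were seen. Of 278 values under an alternative for the members with the highest and lowest fold changes, named as the methods state, and the 3 target genes, which do not include Fzd6, 262 kept direction and side of the threshold, 15 no longer passed it, 1 passed it anew (Wnt1, above) and 0 changed direction. The count of members with an unadjusted p under 0.05 between SKF+Aβ and SKF went from 3 to 9 with no filter and to 1 with DESeq2.

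The labels give replicates only a shared number, and across genes the correlation of their deviations from the group means was between -0.0722 and 0.248. With the replicate block 0 members and 3 target genes were called, as without it. Where a library was left out, the lone library of its group was assumed to vary like the others. Members with few counts had standard errors of up to 0.87, which limits what could be seen.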
